A study of Mus musculus with 8 samples.

Results

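The blood of mice that carried a heart, a liver or a kidney allograft was read as 3 libraries, 1 for each kind of graft. The libraries carry the source label blood and are called peripheral blood mononuclear cells (PBMCs) here after the study. They were taken whole, by their labels of organ and blood, from the 8 libraries of the series, and each held 10000 barcodes. Together they gave 30000 of 80000 barcodes and 15737 of the 47542 barcodes with at least 500 unique molecular identifiers (UMIs), which are called cells here. All 3 are labelled male, 8 weeks old and BALB/c. Per the study's methods the organs came from BALB/c donors and the recipients were C57BL/6 mice given no immunosuppressive drug, and blood was drawn on day 7 after grafting. The liver took the place of the recipient's own, whereas hearts and kidneys were added beside the native organs. The methods name 2 recipients of each organ, and more blood samples than the 3 blood libraries held here. They do not say which animals or samples entered which library. How the mononuclear fraction of blood was prepared is not given in the sources used here. With 1 library for each graft no comparison could be tested, so values stand with exact 95% Poisson intervals that cover counting error only. A difference between libraries cannot be told apart from a difference between animals, preparations or runs.

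Blood leukocytes change within days of an allograft. Neutrophils leave the marrow carrying proteins packed into granules at successive stages of their maturation, and inflammation draws younger neutrophils into blood. Classical monocytes carry the chemokine receptor Ccr2 and become macrophages or antigen-presenting cells in tissue, while T cells that meet donor antigen divide, arm themselves with granzymes and perforin, and travel back to the graft through blood. Mouse livers are often accepted across strains without drugs, whereas hearts and kidneys as a rule are rejected.

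The libraries differed in depth. Heart, liver and kidney PBMCs held 7522904, 6731112 and 3450766 UMIs, with a median of 686, 585 and 261 UMIs per barcode. At least 500 UMIs were found in 7772, 6822 and 1143 barcodes, which carried 87.9%, 80.4% and 30.4% of the UMIs of their library. Most of the kidney counts therefore came from small barcodes, and each result below is given over all barcodes, with the value in cells where it matters. Pairs of the 3 libraries shared from 127 to 423 barcode sequences, and leaving these out moved none of the 12 gene counts below by more than 1.5 times. Levels are given as CPM, the UMIs of a gene per 1000000 UMIs of the library. Folds are ratios of CPM plus 1 unless said to be in CPM. A count of 0 allows up to 0.399 CPM in heart, 0.446 in liver and 0.869 in kidney PBMCs, the level of 3 UMIs.

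Markers were checked against the labels first. Xist, made in female cells, had no UMI in any of the 3, and the Y-linked Ddx3y stood at 16.1, 26.9 and 23.5 CPM in heart, liver and kidney PBMCs, all 3 of which are labelled male. H2-Ea-ps, the class II alpha gene that C57BL/6 mice do not transcribe, also had no UMI in blood, although the strain label reads BALB/c. Of 10 hepatocyte genes, 3 had a UMI in blood, and these summed to 1.06, 0.891 and 0.58 CPM. The cardiomyocyte list was level at 11.3, 12.5 and 11.9 CPM, nearly all of it Myl2, a myosin light chain, as was Gpx3, a secreted glutathione peroxidase that makes up most of the proximal tubule list, at 20.2, 20.5 and 21.4 CPM. Of the 9 proximal tubule genes Kap, an androgen-driven kidney protein, was at 0.133, 0 and 3.19 CPM. Kap was the highest in the kidney library, with 11 UMIs there against 1 and 0. Organ markers ran against the labels of 2 graft libraries. The hepatocyte list was at 553 CPM in the library labelled heart lymphocytes and 2.11 CPM in that labelled liver lymphocytes, whereas the cardiomyocyte list was at 3.65 and 173 CPM. Values of these 2 libraries are given by label below, and no direction is drawn from them. Organ markers did not separate heart from liver blood.

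Neutrophil RNA was abundant although the libraries are named mononuclear cells, and its share differed between them. It was followed through S100a8 and S100a9, which form the calcium-binding calprotectin of neutrophils and monocytes. S100a8 stood at 103642, 62010.0 and 43530.0 CPM in heart, liver and kidney PBMCs. Their joint share of a cell's UMIs had a median of 17.3% in heart, 11.4% in liver and 2.24% in kidney cells. A share of 10% or more was met by 6902 heart cells (88.8%), 4085 liver cells (59.9%) and 171 kidney cells (15.0%). Under 5% lay 253, 1453 and 899 cells. These ranges are cuts of a continuous share rather than cell types, and 273 heart, 702 liver and 26 kidney cells lay within 1 percentage point of the upper cut. In kidney PBMCs the cells were unlike the small barcodes. The 12 mature neutrophil markers summed to 127273 CPM under 500 UMIs and 44462 CPM in cells, against 235183 and 202925 in heart PBMCs. In these sums fewer cells of a type and less RNA per cell cannot be told apart.

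**Figure D1:**
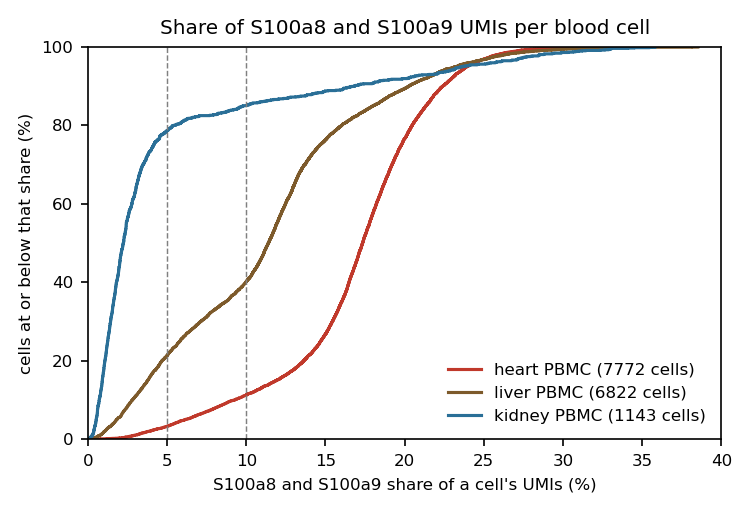
Cumulative share of cells (y axis, %) by the percent of a cell's UMIs from S100a8 and S100a9 (x axis) in heart, liver and kidney PBMCs with at least 500 UMIs, with dashed lines at 5% and 10%. The kidney curve rises first, with 78.7% of its cells under 5%, and the heart curve last, with 88.8% at or above 10%.

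7758 of 18309 genes had at least 50 UMIs in 1 or more of the 3 libraries and were compared. A gene is called higher or lower when CPM plus 1 differed at least 2-fold, a log2 ratio of 1. Heart PBMCs were higher than liver PBMCs for 202 genes (2.60% of those compared) and lower for 1231 (15.9%). Against kidney PBMCs, heart was higher for 754 (9.72%) and lower for 2039 (26.3%). Liver was higher than kidney for 842 genes (10.9%) and kidney higher than liver for 858 (11.1%). In both heart comparisons more genes were lower than higher in heart, and this split moved with the scale. The median log2 ratio over all genes was -0.32 for heart over liver, -0.37 for heart over kidney and -0.00 for liver over kidney, and scaling by trimmed mean of M values (TMM), which centres the bulk of genes, brought these to -0.02, -0.05 and 0.02. Among the genes past 2-fold the share that was higher in heart moved from 14.1% to 38.0% against liver and from 27.0% to 46.6% against kidney under TMM. Within the S100 ranges the split against kidney turned, with 1306 genes higher and 807 lower in heart among S100-high cells and 562 and 414 among S100-low cells. Only 5679 and 3911 genes passed the minimum in these ranges. The S100-high range holds 6902 heart but only 171 kidney cells, and the S100-low range 253 heart and 899 kidney cells. The part of cell number in this split was not tested. The 3 comparisons use the same 3 libraries and are not independent of each other.

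**Figure D2:**
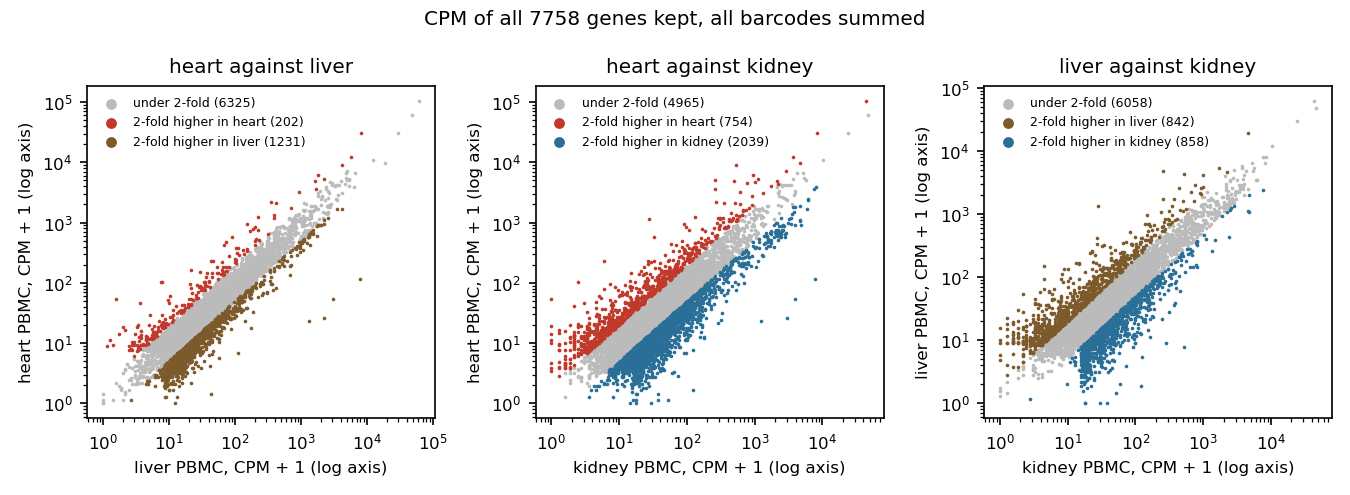
CPM plus 1 of the 7758 genes in each pair of PBMC libraries on log axes, all barcodes summed, 1 point per gene, coloured where the library on an axis was at least 2-fold higher. 202 points lie on the heart side and 1231 on the liver side of the first panel, and in both heart panels haemoglobin genes are among the points farthest from heart.

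A single library stood apart from both others for many genes. Heart PBMCs were at least 2-fold above both for 138 genes (1.78%) and below both for 762 (9.82%), which became 278 and 363 under TMM. For liver PBMCs these were 251 (3.24%) and 41 (0.528%), which became 173 and 79 under TMM. For kidney PBMCs they were 765 (9.86%) and 447 (5.76%), which became 660 and 581. The same call held in cells, with the minimum of 50 UMIs applied there too, for 127, 197 and 514 of the higher genes and 561, 33 and 379 of the lower ones. With the minimum applied to all barcodes only, these were 131, 215 and 721 and 648, 35 and 394. The 10 highest and 5 lowest genes of each library, 45 in all, were named by the size of the ratio to the nearer of the other libraries, so their ratios are descriptions of the genes farthest out. Counts within gene lists below are to be read beside the shares of all genes given in this paragraph.

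**Figure D3:**
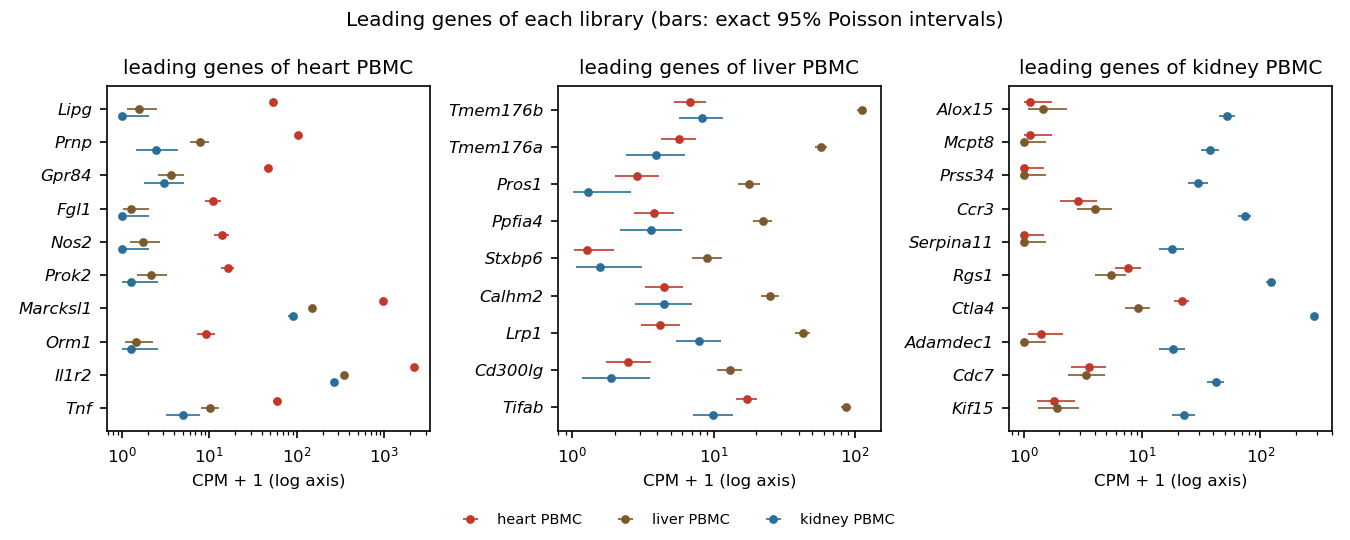
CPM plus 1 (log axis) of leading genes, those farthest above both other libraries, in heart, liver and kidney PBMCs, with exact 95% Poisson intervals as bars. In each panel the named library lies to the right of the other 2 for every gene shown. In the heart panel the heart levels run from Orm1 at 8.24 CPM to Il1r2 at 2224 CPM.

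Heart PBMCs carried the most neutrophil RNA, with 206836, 124061 and 102126 CPM over the 12 mature neutrophil markers in heart, liver and kidney. Il1r2, the decoy receptor that binds interleukin 1 without signalling, had 16728, 2341 and 918 UMIs in heart, liver and kidney PBMCs, or 2224 (2190.0 to 2258), 348 (334 to 362) and 266 (249 to 284) CPM. Heart was 6.38-fold above liver and 8.33-fold above kidney for this gene, and over all barcodes liver and kidney lay close to each other. Retnlg, a resistin-like protein of mature neutrophils, was at 31116, 8036 and 8306 CPM. Among the 12 mature neutrophil markers 3 were at least 2-fold higher in heart than in both others, namely Il1r2, Retnlg and the collagenase Mmp8. Over all barcodes S100a9 was nearly level, with 59825, 47979.7 and 46489 CPM, and G0s2, an inhibitor of lipolysis, went the other way with 151, 65.2 and 389 CPM and its highest level in kidney. In cells the 12 markers summed to 202925, 114834 and 44462 CPM in heart, liver and kidney, so kidney was well below liver there. The median log2 ratio of the 12 was 0.76 for heart over liver and 1.39 for heart over kidney.

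Of 12 markers of granule-forming neutrophil precursors 9 passed the count minimum and 6 of these were highest in heart by at least 2-fold. Lcn2, the iron-scavenging lipocalin of specific granules, stood at 6262, 1847 and 957 CPM. Chil1, a chitinase-like granule protein, was at 1225, 222 and 132 CPM, and Ngp, a neutrophilic granule protein, at 472, 71.2 and 215 CPM. Heart held the highest level of all 3, and the lowest was kidney for Lcn2 and Chil1 but liver for Ngp. Camp, the antimicrobial cathelicidin, followed Ngp with 149, 29.0 and 70.7 CPM. Elane, the elastase of the earliest granules, was low, with 83, 19 and 3 UMIs, and Mpo of the same granules had 1, 1 and 3 UMIs. The list as a whole had a median log2 ratio of 1.76 for heart over liver, where all genes compared had -0.32. The list of azurophil granule genes, which shares members with this one, did not follow as a whole, with 479, 1146 and 184 CPM and a median log2 ratio of -0.03 for heart over liver. Of its 5 genes kept, 2 were at least 2-fold higher in heart than in both others and 1 in liver. Over all genes these shares were 1.78% and 3.24%. Prtn3, which encodes proteinase 3 and sits in the same list, was close in heart and liver at 55.2 and 56.3 CPM and was one of the 5 lowest genes of kidney, at 4.35 CPM (15 UMIs).

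The part of cell shares in this was not tested. Values inside a range of the S100 share are set side by side here. In cells with 10% or more, Retnlg was at 34542, 11686 and 19783 CPM in heart, liver and kidney, and Il1r2 at 2407, 472 and 708. Heart remained highest for both. The granule precursor list did not keep its order, with 9111, 3143 and 7109.8 CPM. Among the 171 kidney cells of that range Ngp reached 2208 and Camp 1025 CPM, above the heart cells at 556 and 179, and Ltf, the lactoferrin of specific granules, stood at 57.5, 16.3 and 419 CPM.

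Acute phase genes were higher in heart PBMCs than in kidney PBMCs and, for part of the list, than in liver. Of 14 listed genes 7 passed the minimum, and 4 of them (Hp, Lcn2, Lrg1 and Orm1) were at least 2-fold above both other libraries in heart. Hp, the haptoglobin that binds free haemoglobin, was at 5298, 2209 and 1127 CPM. Lrg1, a leucine-rich glycoprotein, was at 3586, 1706 and 256 CPM. In S100-low cells the median log2 ratio of the list was near 0 for heart over liver. Saa3, a serum amyloid made by leukocytes and other cells outside the liver, did not share this order. It had 8635, 8961 and 92 UMIs, or 1148 (1124 to 1172), 1331 (1304 to 1359) and 26.7 (21.5 to 32.7) CPM in heart, liver and kidney PBMCs, so heart and liver were within 2-fold and kidney was 41.5-fold below heart. Saa3 was the gene farthest down in kidney PBMCs, and in kidney cells with a low S100 share it was at 36.0 CPM, against 1892 and 2417 in the same range of heart and liver.

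Several leading genes of heart PBMCs were almost confined to that library among the 3. Lipg, the endothelial lipase, held 400, 4 and 0 UMIs, or 53.2 CPM (48.1 to 58.6) in heart. Heart exceeded liver 89.5-fold in CPM, with a counting interval of 34.7 to 330.0, and exceeded kidney at least 61.2-fold, taking 3 UMIs as the floor. Prnp, which encodes the cellular prion protein, was at 103, 6.83 and 1.45 CPM, and Gpr84, a receptor for medium-chain fatty acids on activated myeloid cells, at 45.7, 2.67 and 2.03 CPM. Marcksl1, a MARCKS-like actin regulator, was abundant in all 3 with 959, 149 and 89.5 CPM, and heart stood 6.39-fold above liver. The cytokine Tnf was at 58.8, 9.36 and 4.06 CPM and Nos2, the inducible nitric oxide synthase, at 12.9, 0.743 and 0 CPM with 97, 5 and 0 UMIs. Tnf was thus more than 5-fold higher in heart than in either other library, and Nos2 had no UMI in kidney. Prok2, a chemokine-like prokineticin, had 115, 8 and 1 UMIs and Orm1 had 62, 3 and 1, each few outside heart. Fgl1, a fibrinogen-like protein known as a ligand of Lag3, had 77, 2 and 0. In S100-high cells Lipg, Prnp, Gpr84 and Prok2 stood at 60.6, 114, 50.8 and 17.6 CPM in heart PBMCs, above the 13.7, 13.7, 19.2 and 0 of S100-low cells.

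The 5 genes farthest down in heart PBMCs were all red cell genes. Hbb-bs, a beta globin, had 857, 53745 and 26645 UMIs, or 114 (106 to 122), 7985 (7917 to 8052) and 7721 (7629 to 7815) CPM in heart, liver and kidney. Liver and kidney were level, and heart was 69.5-fold below liver. Hba-a1 and Hba-a2, the alpha globins, behaved alike. Hba-a1 was at 52.0, 3034 and 3962 CPM and Hba-a2 at 25.4, 2212 and 2966 CPM. The second beta globin gene, Hbb-bt, stood at 21.9, 1304 and 1255 CPM. Each of these pairs is nearly identical in sequence, so the split of reads within a pair is uncertain. Alas2, the first enzyme of red cell haem synthesis, had 3, 286 and 125 UMIs. The 17 erythroid genes summed to 463, 14802 and 16160.5 CPM, and 8 of the 11 that passed the minimum were at least 2-fold lower in heart than in both others. The UMIs were spread differently over cells. After each cell was thinned to 500 UMIs, erythroid genes had a median of 0 UMIs in heart, 5 in liver and 2 in kidney cells. At the 90th percentile they had 1, 12 and 6 UMIs, and at the 99th percentile 2, 33.8 and 378. Liver was thus highest at the median and the 90th percentile, and kidney at the 99th. In graft libraries the same sum was 462 CPM under the label heart lymphocytes, 53788 under liver lymphocytes, 138 in liver parenchyma, 3039 in kidney lymphocytes and 23749.5 in kidney parenchyma.

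Translation and chaperone genes were also lower in heart PBMCs. The 85 ribosomal protein genes summed to 61592, 112334 and 172391 CPM. Of the 83 that passed the minimum, 33 were at least 2-fold lower in heart than in both others, where 9.82% of all genes were. Among the same 83, 10 were at least 2-fold higher in kidney than in both, where 9.86% of all genes were. The ribosomal list had a median log2 ratio of -0.97 for heart over liver and -1.56 for heart over kidney. All genes had -0.32 and -0.37, which TMM brought to -0.02 and -0.05. Hspa8, the constitutive Hsp70 chaperone, stood at 458, 1219 and 1429 CPM and Hsp90aa1, an inducible Hsp90, at 14.0, 55.1 and 161 CPM. 6 of 10 heat shock genes kept were lower in heart by this rule. Under TMM the heat shock median of heart over liver moved from -1.21 to -0.90, while the direction stayed. The gap between heart and liver was smaller in S100-low cells, where ribosomal protein genes summed to 129001, 147103 and 211950.0 CPM in heart, liver and kidney and heat shock genes to 2402, 3339.7 and 4545 CPM. The 10 patrolling monocyte markers were mixed. Of the 9 kept, 3 were at least 2-fold lower in heart than in both others, among them Ace with 0, 77 and 46 UMIs and Adgre4 with 15, 101 and 45, while Pglyrp1, a peptidoglycan recognition protein that neutrophils also make, was higher there at 1771, 706 and 829 CPM, and the list summed to 2544, 1691 and 1566 CPM.

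**Figure D4:**
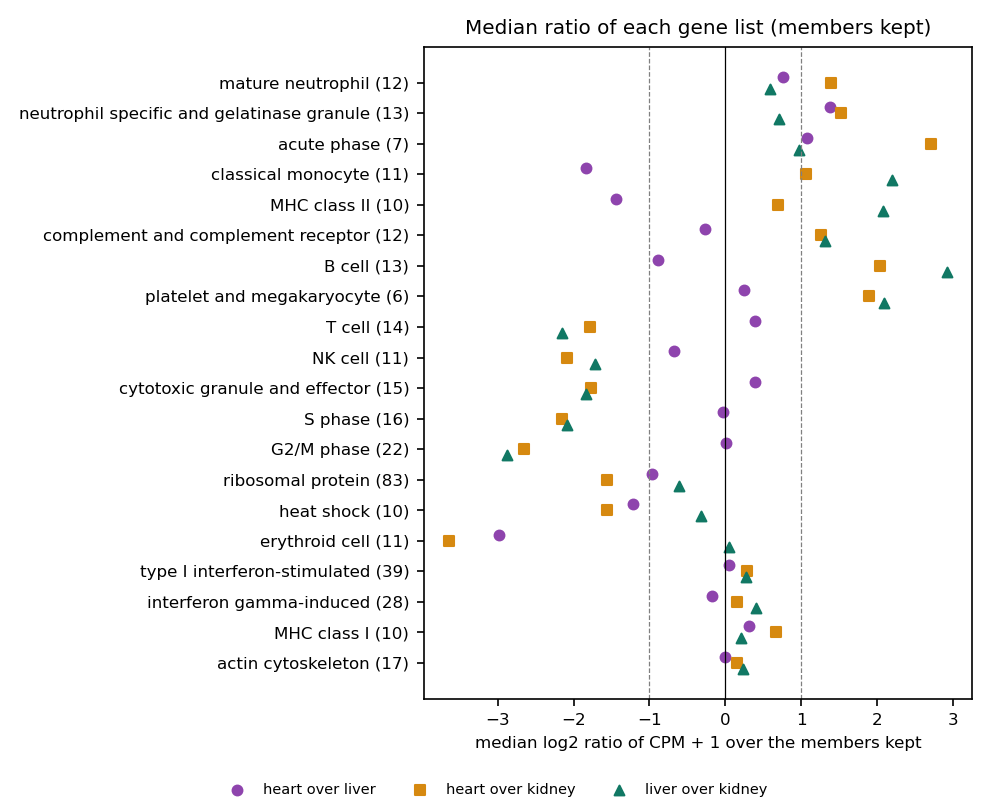
Median log2 ratio of CPM plus 1 (x axis) over the members kept (number in brackets) of each gene list for the 3 pairs of PBMC libraries, with dashed lines at 2-fold. The mature neutrophil, specific granule and acute phase lists lie right of 0 for heart over liver, monocyte and MHC class II lists left of it, and T cell, NK cell and cell cycle lists lie left of -1 wherever kidney is the second library.

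Liver PBMCs were marked by monocyte genes. By the 2-fold rule 7 of the 11 classical monocyte markers stood above both other libraries in liver PBMCs, and none did so in heart or kidney. Ccr2, the receptor that brings monocytes out of the marrow, had 610, 2837 and 424 UMIs, or 81.1 (74.8 to 87.8), 421 (406 to 437) and 123 (111 to 135) CPM. Fn1, which encodes fibronectin, was at 37.0, 147 and 3.48 CPM, and Vcan, the proteoglycan versican, at 9.44, 44.0 and 2.32 CPM. Liver was the highest for each, whereas kidney was lowest for Fn1 and Vcan and heart for Ccr2. The other members above both were F13a1, Ms4a6c, Ms4a4c and Fcgr1, the high-affinity IgG receptor, which stood at 31.6, 122 and 25.2 CPM. Lyz2, lysozyme M of monocytes and neutrophils, was at 9849, 19073 and 4584 CPM and so just under 2-fold above heart. Ly6c2, the surface antigen by which these monocytes are usually sorted, was nearly equal with 2336, 2344 and 3032 CPM, and Chil3 was level between heart and liver with 5066, 4917 and 257 CPM but 19.1-fold lower in kidney. The list had a median log2 ratio of -1.84 for heart over liver and 2.19 for liver over kidney, against -0.32 and -0.00 over all genes.

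MHC class II genes, which present antigen to CD4 T cells, followed the same order. So did B cell markers, at 1502, 2266 and 590 CPM in heart, liver and kidney, and which cells carried the class II RNA was not tested. Of the 10 class II genes kept, 8 passed 2-fold over both other libraries in liver PBMCs. Cd74, the invariant chain, stood at 1670.2, 4155 and 1002 CPM, and H2-Ab1, a beta chain, at 586, 1736 and 375 CPM. H2-DMb1, which helps load peptides, was at 32.2, 189 and 43.2 CPM and H2-Ob, which restrains that step in B cells, at 52.5, 120.0 and 16.8 CPM. Kidney was lowest for Cd74, H2-Ab1 and H2-Ob and heart for H2-DMb1. MHC class I genes did not follow: none of 10 was 2-fold apart from both other libraries anywhere, and the sums were 23224, 21751 and 18426 CPM.

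The genes farthest up in liver PBMCs were Tmem176b and Tmem176a, neighbouring membrane proteins of myeloid cells. Tmem176b had 44, 747 and 25 UMIs, or 5.85 (4.25 to 7.85), 111 (103 to 119) and 7.24 (4.69 to 10.7) CPM, and Tmem176a 4.65, 56.6 and 2.90 CPM. Heart and kidney were close to each other for both, and liver was 16.3-fold above heart for Tmem176b. Pros1, the anticoagulant protein S and a ligand of TAM receptors, was at 1.86, 16.8 and 0.29 CPM, where the kidney value rests on 1 UMI. Lrp1, a scavenger receptor for protease complexes, was at 3.19, 41.6 and 6.95 CPM and Tifab, a TRAF-interacting signalling protein, at 16.2, 85.3 and 8.98 CPM. Other leading genes were Ppfia4, Stxbp6, Calhm2 and Cd300lg, with liver levels from 8.02 to 24.1 CPM. In S100-low cells, Tmem176b was at 24.6, 235 and 12.4 CPM in heart, liver and kidney, and the monocyte list at 28346, 42420.3 and 7589 CPM.

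Few genes were lowest in liver PBMCs by the 2-fold rule, with 41 over all barcodes, 79 under TMM and 191 in S100-low cells. Cxcl2, a chemokine that attracts neutrophils, had 753, 45 and 1784 UMIs, or 100.1 (93.1 to 108), 6.69 (4.88 to 8.95) and 517 (493 to 542) CPM in heart, liver and kidney. The 3 intervals did not overlap, and kidney stood 67.4-fold above liver. Ccrl2, a chemerin-binding receptor of activated neutrophils, was at 161, 20.4 and 243 CPM. Lag3, an inhibitory receptor of activated T cells, was at 28.6, 4.16 and 33.9 CPM with 28 UMIs in liver. Ltf and the adaptor gene Sdcbp2 completed the 5, with Ltf at 50.6, 8.77 and 34.8 CPM and Sdcbp2 at 11.6, 2.53 and 16.2 CPM. Nfkbia and Tnfaip3, which feed back on NF-kappaB, were lowest in liver by at least 2-fold. With Nfkbiz they were the 3 of 23 immediate early and activation genes kept that were lower in liver than in both others, while 1, the transcription factor Klf2, was higher in liver than in both. Nfkbia was at 1358, 396 and 1115 CPM and Tnfaip3 at 39.9, 11.7 and 52.5 CPM. Counts of Lag3 and Sdcbp2 in the 171 S100-high kidney cells, and of Ltf in S100-low cells, were too few to order the libraries inside those ranges. Il1b, which encodes interleukin 1 beta, was within 2-fold throughout, at 3308, 1951 and 2299.8 CPM.

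T cell genes were highest in kidney PBMCs. All 14 T cell markers were at least 2-fold higher in kidney PBMCs than in both others, where 9.86% of all genes were. Trbc2, a constant segment of the T cell receptor beta chain, had 3267, 1755 and 4672 UMIs, or 434 (419.5 to 449), 261 (249 to 273) and 1354 (1315 to 1393) CPM in heart, liver and kidney PBMCs, and Cd3d, a chain of its signalling complex, was at 277, 157 and 771 CPM. Kidney was the highest and liver the lowest for both. Tcf7, the transcription factor of naive and memory T cells, stood at 7.58, 18.4 and 74.8 CPM and was lowest in heart. Cd8a, a chain of the CD8 coreceptor, was at 75.4, 52.3 and 259 CPM, its partner Cd8b1 at 209, 146 and 645 CPM and Cd4, the other coreceptor, at 2.39, 2.97 and 20.6 CPM, each with kidney highest. The list median was -1.78 for heart over kidney and -2.15 for liver over kidney in log2. In cells thinned to 500 UMIs, T cell genes had a median of 2 UMIs in kidney and 0 in heart and liver, and the S100 share that went with this was the 2.24% given above.

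NK cell genes were highest in kidney PBMCs too, and their sums in heart and liver were close, at 1372, 1474 and 5931 CPM in heart, liver and kidney. Gzma alone made up 1099 CPM of the heart sum and 1068 CPM of the liver sum. The list median for heart over liver was -0.68 in log2, where all genes had -0.32. All 11 NK cell genes kept were highest in kidney PBMCs by at least 2-fold, where 9.86% of all genes were. Inside S100-low cells heart and kidney came closer, with 4144, 1833 and 7507 CPM for the NK cell list in heart, liver and kidney and 10136, 4340.4 and 12747 CPM for the cytotoxic list. Ncr1, the activating receptor NKp46, was at 17.8, 31.8 and 116 CPM. Klra4 and Klra8, Ly49 receptors whose similar copies make read assignment uncertain, were also higher in liver than in heart. Klra4 was at 19.8, 42.0 and 154 CPM and Klra8 at 38.0, 75.9 and 162 CPM. Of 15 cytotoxic genes kept, 10 were highest in kidney by at least 2-fold, where 9.86% of all genes were. Tnf, given above, is also in this list and went the other way, highest in heart and lowest in kidney by this rule. Gzma, granzyme A, stood at 1099, 1068 and 4670.0 CPM, Nkg7, which aids granule release, at 648, 431 and 2403 CPM and Prf1, perforin, at 41.1, 31.0 and 141 CPM. Ifng, the interferon gamma gene, had 47, 25 and 164 UMIs, or 6.25, 3.71 and 47.5 CPM. Gzmb, granzyme B, did not separate heart from kidney, with 519, 231 and 603 CPM, and Srgn, the granule proteoglycan that many leukocytes carry, was within 2-fold in all. Ccl5, a chemokine of effector T and NK cells, was at 3604, 2395 and 7539 CPM.

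Among inhibitory receptors Ctla4 was far out. It had 155, 55 and 977 UMIs, or 20.6 (17.5 to 24.1), 8.17 (6.16 to 10.6) and 283 (266 to 301) CPM in heart, liver and kidney PBMCs, so kidney was 13.2-fold above heart and 31.0-fold above liver. In S100-low cells it stood at 112, 14.5 and 583 CPM. Foxp3, the factor that defines regulatory T cells, had only 0, 5 and 18 UMIs, and Ikzf2, another gene of those cells, 6, 6 and 50. Pdcd1, the receptor PD-1, was at 12.5, 4.46 and 29.6 CPM and Cd160 at 22.5, 19.8 and 58.0 CPM. 3 of the 9 inhibitory genes kept were highest in kidney by at least 2-fold, namely Ctla4, Pdcd1 and Cd160, where 9.86% of all genes were. Also 3 of the 9, Ctla4, Pdcd1 and Lag3, were lowest in liver by at least 2-fold, where 0.528% of all genes were. In the other direction 1 was higher in liver than in both others and 1 lower in kidney. Rgs1, a brake on chemokine receptor signalling in activated lymphocytes, was at 6.65, 4.46 and 123 CPM and was another leading gene of kidney.

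Cell cycle genes were high in kidney PBMCs. Of 16 S phase genes kept, 15 were at least 2-fold higher in kidney than in both others, and of 22 G2/M genes 21 were. Ube2c, which loads ubiquitin for the anaphase-promoting complex, had 175, 185 and 1079 UMIs, or 23.3 (19.9 to 27.0), 27.5 (23.7 to 31.7) and 313 (294 to 332) CPM. Cdk1, the kinase that drives entry into mitosis, stood at 11.8, 13.4 and 155 CPM, and Birc5, a subunit of the chromosomal passenger complex, at 65.5, 38.0 and 385 CPM. Heart and liver were alike for Ube2c and Cdk1, and kidney was 12.9-fold and 12.1-fold above heart. Mki67, the marker Ki-67, was lower, with 2.92, 8.17 and 41.2 CPM and kidney again highest. It was the 1 G2/M gene kept that was at least 2-fold lower in heart than in both others. Among S phase genes Pcna, the sliding clamp of DNA polymerase, was at 44.3, 68.0 and 249.8 CPM and Rrm2, a subunit of ribonucleotide reductase, at 21.0, 18.7 and 138 CPM. Cdc7, the kinase that fires replication origins, and Kif15, a mitotic kinesin, were leading genes, with Cdc7 at 2.53, 2.38 and 41.2 CPM and Kif15 at 0.798, 0.891 and 21.4 CPM. Exceptions were Slbp, the histone mRNA binding protein, at 14.5, 14.6 and 25.8 CPM and Kif23 at 16.7, 23.6 and 46.9 CPM. G2/M genes had median log2 ratios of -2.65 for heart over kidney and -2.87 for liver over kidney, and 0.01 for heart over liver.

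Promoters of Ube2c and Cdk1 are shown as examples of this group, whose members were high together, from the RefSeq table of GRCm38.p6, as 250 bases that end at the base before the annotated start, 5′ to 3′ on the strand of the gene. Ube2c lies on the + strand (chr2:164769679-164769928) and Cdk1 on the - strand (chr10:69352913-69353162). Capitals mark CCAAT, the box bound by NF-Y, and TTTGAA, the core of the cell cycle homology region, each searched on both strands.
Ube2c: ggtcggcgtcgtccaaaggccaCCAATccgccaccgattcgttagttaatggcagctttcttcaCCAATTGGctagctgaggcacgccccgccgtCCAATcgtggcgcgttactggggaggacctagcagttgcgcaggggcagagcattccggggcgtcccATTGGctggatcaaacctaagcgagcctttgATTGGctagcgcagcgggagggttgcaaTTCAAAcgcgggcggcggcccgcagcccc
Cdk1: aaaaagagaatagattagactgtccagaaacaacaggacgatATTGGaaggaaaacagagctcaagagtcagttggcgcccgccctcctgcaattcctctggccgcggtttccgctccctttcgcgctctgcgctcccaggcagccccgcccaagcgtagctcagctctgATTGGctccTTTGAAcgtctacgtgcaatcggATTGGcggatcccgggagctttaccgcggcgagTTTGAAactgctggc
Ube2c held 6 CCAAT boxes, 2 of which overlap in CCAATTGG, and 1 TTTGAA, and Cdk1 held 3 and 2. Of the 24 G2/M genes 20 had a promoter in the table, of which 18 (90%) held CCAAT and 9 (45%) TTTGAA. The S phase genes had 18 promoters from 16 of 18 genes, with CCAAT in 13 (72.2%) and TTTGAA in 2 (11.1%). Over all 32851 promoters of the table the shares were 33.8% and 16.0%. A match of letters is a description and no evidence of binding.

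Level in cells was higher still for this group. G2/M genes summed to 314, 350.1 and 2154 CPM under 500 UMIs in heart, liver and kidney, and to 538, 474 and 4386 CPM in cells. Within S100-low cells they stood at 2235, 697 and 4904 CPM, and within S100-high cells at 369, 360.4 and 1053 CPM. Kidney was highest in each range, but the heart sum of S100-low cells rests on 253 cells and the kidney sum of S100-high cells on 171. In the S100-high range T cell genes stood at 1228, 788 and 2423 CPM in heart, liver and kidney. Doublets were not called, so whether a barcode held RNA of more than 1 cell was not tested. For T cell genes the S100-low range gave 5083, 1550.1 and 6557 CPM, so heart and kidney were within 2-fold there and liver was lower.

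**Figure D5:**
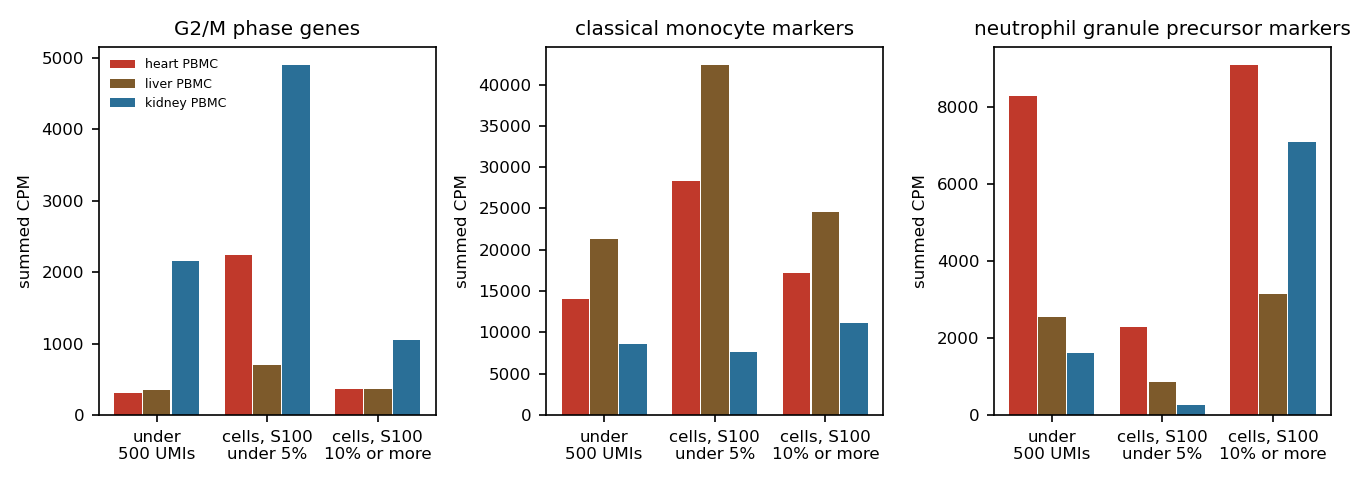
Summed CPM of G2/M genes, classical monocyte markers and neutrophil granule precursor markers (y axes, from 0) in barcodes under 500 UMIs and in cells with an S100a8 and S100a9 share under 5% or of 10% and more, for heart, liver and kidney PBMCs, 1 bar per library and no error bar. Kidney bars are the highest for G2/M genes and liver bars for monocyte markers in all 3 ranges, whereas for granule precursors the kidney bar rises from 268 CPM in S100-low to 7110 CPM in S100-high cells.

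Of 4 genes kept from the list of basophils, mast cells and eosinophils, 3 were highest in kidney PBMCs by at least 2-fold. Mcpt8, a protease of basophils, had 1, 0 and 126 UMIs in heart, liver and kidney PBMCs, and Prss34, another, had 0, 0 and 99. Prss34 was thus at least 71.9-fold higher in kidney than in heart and at least 64.4-fold higher than in liver in CPM, with the floor at 3 UMIs per library. Ccr3, the eotaxin receptor of eosinophils and basophils, stood at 1.86 (1.02 to 3.12), 2.97 (1.81 to 4.59) and 72.4 (63.7 to 82.0) CPM. Alox15, the 12/15-lipoxygenase of eosinophils and some macrophages, had 1, 3 and 177 UMIs and a kidney level of 51.3 CPM. In the kidney library these were higher in small barcodes than in cells, whereas T cell genes summed to 4631 CPM in small barcodes and 6096 CPM in cells. Ccr3 was at 92.4 against 26.7 CPM and Alox15 at 64.1 against 21.9 CPM. The other gene kept, Siglecf, a lectin of eosinophils, was within 2-fold at 12.5, 9.06 and 15.1 CPM, and in cells, where it alone passed the minimum, the list median was 0.48 for heart over kidney. Of the other list members Epx, the eosinophil peroxidase, had a single UMI, in kidney. Outside the list, Serpina11, a serpin, had 0, 0 and 58 UMIs and Adamdec1, a metalloprotease of macrophages, had 3, 0 and 59, and both were leading genes of kidney.

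B cell genes were lowest in kidney PBMCs. Cd79b, a chain of the B cell receptor, had 1528, 2238 and 90 UMIs, or 203 (193 to 214), 332 (319 to 347) and 26.1 (21.0 to 32.1) CPM in heart, liver and kidney. Liver was the highest, heart lay between and kidney was far below. Ms4a1, which encodes CD20, was at 48.8, 136 and 7.82 CPM and Cxcr5, which guides B cells into follicles, at 15.7, 35.2 and 3.77 CPM. By the 2-fold rule 11 of 13 B cell markers were lower in kidney than in both others and 5 were higher in liver than in both. Over all genes these shares were 5.76% and 3.24%. The median log2 ratio was 2.92 for liver over kidney, 2.03 for heart over kidney and -0.88 for heart over liver. Igkc, the kappa light chain, followed with 1423, 2552 and 443 CPM, while Igha, the constant region of IgA, did not, with 103, 65.8 and 105 CPM.

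Platelet and complement genes were likewise low in kidney PBMCs. Pf4, platelet factor 4, stood at 78.6, 52.7 and 4.93 CPM and Ppbp, another platelet chemokine, at 19.9, 23.9 and 2.61 CPM. 5 of 6 platelet genes kept, against 5.76% of all genes, were lowest in kidney by at least 2-fold. So were 7 of 12 complement genes, among them C5ar1, the C5a receptor, at 329.9, 213 and 94.2 CPM and Cfp, properdin, at 188, 189 and 64.9 CPM. Also 3 of the 12 were higher in liver than in both others, where 3.24% of all genes were. The complement list summed to 1304, 1226 and 426 CPM in S100-low cells of heart, liver and kidney. In S100-high cells it was closer, at 1289, 1261 and 997 CPM. Itgam and Itgb2, which form complement receptor 3, did not differ by 2-fold. Itgam was at 159, 155 and 98.8 CPM and Itgb2 at 397, 409.7 and 309 CPM. Chil3 belongs with the lowest genes of kidney, at 257 CPM, and mt-Nd3, a mitochondrial subunit of complex I, had 101, 144 and 1 UMIs. Gm28438, an unprocessed pseudogene on chromosome 1 that was looked at after the values were seen, had 5, 6 and 417. The mitochondrial gene and the pseudogene therefore ran in opposite directions. Whether they are alike enough in sequence to share reads was not tested. The 29 mitochondrial genes as a whole did not follow mt-Nd3, with 5036, 6646 and 10459 CPM in heart, liver and kidney. Of the 18 kept, 7 were at least 2-fold lower in heart than in both others, where 9.82% of all genes were. In kidney 2 were higher than in both others and 1, mt-Nd3, lower, near the shares of all genes at 9.86% and 5.76%. In liver 1 was higher than in both others, where 3.24% of all genes were.

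Over all barcodes the sums of interferon-stimulated genes lay within 2-fold in the 3 libraries, but in cells the type I sum was lower in kidney. The 40 type I interferon-stimulated genes summed to 19181, 17261 and 15268 CPM, with median log2 ratios of 0.04, 0.28 and 0.27 for heart over liver, heart over kidney and liver over kidney. Over all genes these medians were -0.32, -0.37 and -0.00. Ifitm3, a restriction factor of viral entry, was at 5340.5, 5296 and 3707 CPM and Isg15, a ubiquitin-like modifier, at 891, 677 and 913 CPM. Both were within 2-fold. Of the 39 kept, liver stood above both other libraries by the 2-fold rule for 5, kidney for 2 and heart for none, while heart stood below both for 2 and kidney for 1. Over all genes the shares above both were 3.24% in liver, 9.86% in kidney and 1.78% in heart. Those below both were 9.82% in heart and 5.76% in kidney. Rsad2, the antiviral enzyme viperin, was highest in kidney at 147, 154 and 468 CPM. Interferon gamma-induced genes summed to 8194, 9399.8 and 7587 CPM, with Gbp2, a guanylate-binding GTPase, at 1484, 2192 and 1525 CPM, although of the 28 kept, by the 2-fold rule, 2 stood above both other libraries in heart, 2 in liver and 1 in kidney, and 1 stood below both in heart and 2 in kidney. None of the 17 actin cytoskeleton genes and none of the 19 proteasome genes was 2-fold apart from both other libraries. In cells alone, kidney PBMCs were lower for the type I list, at 19032, 16963 and 8984 CPM for heart, liver and kidney. Inside S100-high cells this order did not hold, with 20295, 19094 and 23566 CPM and kidney highest. Inside S100-low cells the sums were 9868, 14213 and 6954 CPM, with kidney lowest and heart below liver.

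The leading genes had other levels in graft libraries, which are given by their labels. Lipg was at 1.83 CPM in the library labelled heart lymphocytes and 1.05 CPM in that labelled liver lymphocytes, both under its level in heart PBMCs. Tmem176b was at 85.4 CPM under the label liver lymphocytes, 226 CPM in kidney lymphocytes, 52.2 CPM in liver parenchyma and 66.2 CPM under the label heart lymphocytes. Alox15 and Mcpt8 stood at 1.02 and 1.27 CPM in kidney lymphocytes, under their level in kidney PBMCs. Ctla4 was at 89.9, 66.4 and 91.5 CPM under the labels heart, liver and kidney lymphocytes. Cxcl2 was at 489, 1629 and 9.40 CPM under the same labels, with kidney lymphocytes lowest, whereas in blood kidney was highest.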

How the data were processed

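Per the study's methods, cells were captured by Microwell-seq, which primes poly(A) RNA so that reads lie at 3′ ends, and sequenced on an Illumina HiSeq instrument. Drop-seq core tools and STAR were used by the authors for alignment, with GRCm38 as the genome, after which they dropped reads that aligned to several places, assigned genes from a GENCODE annotation and merged UMIs within an edit of each other. The deposited values are whole UMI counts per gene and barcode, 10000 barcodes per library, and no cell annotation was used.

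Counts were summed over all barcodes and over cells (at least 500 UMIs) and scaled to CPM of the library total. Log2 ratios used a pseudocount of 1 CPM and genes with at least 50 UMIs in at least 1 blood library. No test was run, since each graft type had 1 library. Exact 95% Poisson intervals and floors of 3 counts cover counting error only. Doublets were not called and no clusters were made. The 45 leading genes were the 10 highest and 5 lowest per library among genes at least 2-fold apart from both others in all barcodes and in cells, with predicted genes counted but not named. A few items are not reported here. From each of 51 lists, up to 4 members with most UMIs and members at least 2-fold apart from both others could be named, beside label checks and genes the study names. Members and lists were chosen with earlier results of these data known, and the cuts of the S100 share after seeing the data. Alternatives were TMM and median of ratios scaling, other count minimums, pseudocounts and barcode ranges, thinning to 3450766 UMIs, a total without haemoglobin, immunoglobulin, mitochondrial and ribosomal genes, and leaving out shared barcodes. The ratio script was tested on simulated data. Python 3.11.15, numpy 2.4.6, scipy 1.17.1, pandas 2.3.3, matplotlib 3.10.9, R 4.3.3 and edgeR 4.0.16 (TMM factors only) were used.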

Additional observations from a re-analysis of the deposited data

Results flagged for a closer look

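Graft libraries, which are outside the comparison of the 3 blood libraries, also held counts of some genes with a pattern in blood. H2-Ea-ps, without a UMI in blood, stood at 3.33 CPM (31 UMIs) in the library labelled heart lymphocytes, 5.63 CPM (108 UMIs) in liver parenchyma, 36.3 CPM (124 UMIs) in kidney parenchyma and 21.6 CPM (85 UMIs) in kidney lymphocytes. Gm28438 was at 155 CPM (531 UMIs) in kidney parenchyma and 190 CPM (748 UMIs) in kidney lymphocytes. Its level in the other graft libraries is not given here, so no trait of the libraries with a kidney label is drawn from it. Lipg had 17 UMIs, or 1.83 CPM, under the label heart lymphocytes. Tmem176b was at 85.4 CPM (730 UMIs) under the label liver lymphocytes, and Alox15 at 1.02 CPM (4 UMIs) in kidney lymphocytes. No group held enough samples to look for a sample apart from its own group.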

How the results depend on the processing

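No paired analysis was possible because each graft type had 1 blood library and the labels carry no replicate number. The 45 leading genes, chosen as past 2-fold in all barcodes and in cells, were also past it under TMM, median of ratios, thinning and in smaller barcodes. In the same direction, 44 were past it in cells of 1000 UMIs, 43 in S100-low cells, 41 in S100-high cells and 40 with a pseudocount of 10 CPM. List medians moved more. Of 45 past 2-fold in all barcodes, 43 stayed past it under TMM and under median of ratios, 40 in cells of 500 UMIs, 39 in smaller barcodes, 34 with a pseudocount of 10 CPM and 28 in S100-high cells, and in S100-low cells 32 of the 41 that gave a value. Gene counts that moved by over 1.5 times are given next, by setting.

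Genes lower in kidney than both others numbered 797 (cells of 500 UMIs), 792 (cells of 1000 UMIs), 211 (smaller barcodes), 269 (the minimum of 200), 187 (pseudocount 10) and 1111 (S100-high cells). Genes higher in liver than heart numbered 516 (cells of 1000 UMIs), 761 (smaller barcodes), 1905 (no minimum), 417 (the minimum of 200), 351 (pseudocount 10), 663 (TMM), 618 (median of ratios), 575 (S100-high cells) and 433 (S100-low cells). Genes higher in kidney than heart numbered 1079 (cells of 1000 UMIs), 3664 (no minimum), 776 (the minimum of 200), 1121 (pseudocount 10), 1296 (median of ratios), 807 (S100-high cells) and 414 (S100-low cells). Genes lower in heart than both others numbered 229 (cells of 1000 UMIs), 236 (the minimum of 200), 159 (pseudocount 10), 363 (TMM), 325 (median of ratios), 273 (S100-high cells) and 138 (S100-low cells). Genes higher in heart than kidney numbered 368 (smaller barcodes), 472 (the minimum of 200), 384 (pseudocount 10), 1203 (TMM), 1283 (median of ratios) and 1306 (S100-high cells). Genes higher in liver than kidney numbered 361 (smaller barcodes), 1272 (no minimum), 467 (the minimum of 200), 411 (pseudocount 10) and 1426 (S100-high cells). Genes higher in heart than both others numbered 73 (smaller barcodes), 87 (the minimum of 200), 68 (pseudocount 10), 278 (TMM), 299 (median of ratios) and 29 (S100-low cells). Genes higher in liver than both others numbered 86 (smaller barcodes), 399 (no minimum), 119 (the minimum of 200) and 94 (pseudocount 10). Genes higher in kidney than liver numbered 1826 (no minimum), 336 (the minimum of 200), 528 (pseudocount 10), 459 (S100-high cells) and 478 (S100-low cells). Genes higher in kidney than both others numbered 1543 (no minimum), 296 (the minimum of 200), 461 (pseudocount 10), 331 (S100-high cells) and 206 (S100-low cells). Genes lower in liver than both others numbered 71 (no minimum), 19 (the minimum of 200), 13 (pseudocount 10), 79 (TMM), 83 (median of ratios) and 191 (S100-low cells). Genes higher in heart than liver numbered 120 (the minimum of 200), 97 (pseudocount 10), 406 (TMM) and 431 (median of ratios).

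Values that changed sign were few. In cells the basophil median rests on Siglecf alone and became 0.48 for heart over kidney and 0.0151 for liver over kidney. In S100-high cells the log2 ratio against the nearer library was 2.07 for Lag3 and 0.77 for Sdcbp2 in liver and -0.44 for Adamdec1 in kidney, and in S100-low cells 1.53 for Ltf in liver. In each of these 4 a library compared held no UMI in that range, so they show no change of order. The granule precursor median of heart over kidney was -1.99 in S100-high cells. In S100-low cells the acute phase median of heart over liver was -0.0152. The cause was not tested. Against kidney the basophil list gave no value in cells of 1000 UMIs or S100-low cells, nor the platelet list in the latter, as no member passed the minimum. Depth limits kidney cells most, with 1143 against 7772 and 6822, and ratios against counts of 0 to 3.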
